A study of Mus musculus with 24 samples.

Results

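The border-associated macrophage genes Mrc1, Cd163, Lyve1, Pf4, F13a1, Ms4a7, Stab1, Cbr2, Folr2 and Siglec1 were followed in RNA sequencing of whole mouse cortex. They are 10 of the 53647 genes in the deposited table of read counts. A row was taken as a member when its Ensembl identifier, without the version, carried one of these symbols in GENCODE M21, and each symbol matched 1 row. All 10 passed the filter on low counts and are among the 21280 genes tested. The 24 libraries came from cortex of mice aged 7.5 months, 8 per genotype. The 5xFAD group carried the 5xFAD transgenes and is titled wild type for Plcg2, which encodes phospholipase C-gamma-2. The 5xFADM28L and 5xFADP522R groups, called M28L and P522R below, carried the same transgenes and are titled homozygous for that variant of Plcg2. All groups thus share the 5xFAD background, in which human familial Alzheimer's disease transgenes run under the neuronal Thy1 promoter and plaques form, and there is no group without the transgenes. Each genotype had 4 libraries with the letter F and 4 with the letter M in the title, and the labels do not say what the letters stand for. Replicates are named by the number in the title, taken here as an animal number.

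Border-associated macrophages are resident macrophages of the brain's edges. They lie in the meninges, in the spaces around penetrating vessels and in the choroid plexus, whereas microglia lie within the tissue itself. They take up proteins and debris through scavenger receptors and lectins, which is why receptors such as the mannose receptor and the haemoglobin receptor serve as their markers. Several of these genes are also expressed elsewhere: Lyve1 and Stab1 in lymphatic and sinusoidal endothelium, Pf4 in platelets, and Cbr2 strongly in lung.

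Library totals lay between 79230161 and 115154197 counts, and among 276 pairs of libraries none were identical (smallest chi-square per degree of freedom 7.68). The unit of level is CPM, here after TMM scaling of the library sizes. The summed level of 10 cortical neuron genes lay between 5303 and 7525 CPM in all 24 libraries. Plcg2 itself lay between 6.08 and 13.2 CPM in 5xFAD, 6.65 and 12.3 CPM in M28L and 10.5 and 31.7 CPM in P522R, which says nothing of the coding change. The short neuronal RNA Bc1 took over 10% of the counts in 5 libraries, 4 of them P522R and 1 of them 5xFAD. P522R replicates 8 and 106, both with the letter F, stood apart from all others by lung genes. Scgb1a1, a secretory protein of lung airways, lay at 26.9 and 14.6 CPM there and at 0 in 20 of the other 22 libraries, whose highest value was 0.0294 CPM. Of 13 lung airway and alveolar genes, a list chosen after the data were seen, 12 were higher in both of these libraries than in all the other 22. Their summed level was 77.8 and 36.6 CPM there against 1.26 to 2.66 CPM elsewhere. Calls on the members and list counts in P522R that change without these 2 libraries are therefore given both ways. M28L replicate 17, with the letter M, stood apart by choroid plexus genes. The summed level of 12 such genes was 285 CPM there, against an M28L median of 12.4 CPM. The highest sum was 14.1 CPM among 5xFAD and 24.5 CPM among P522R libraries.

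**Figure D1:**
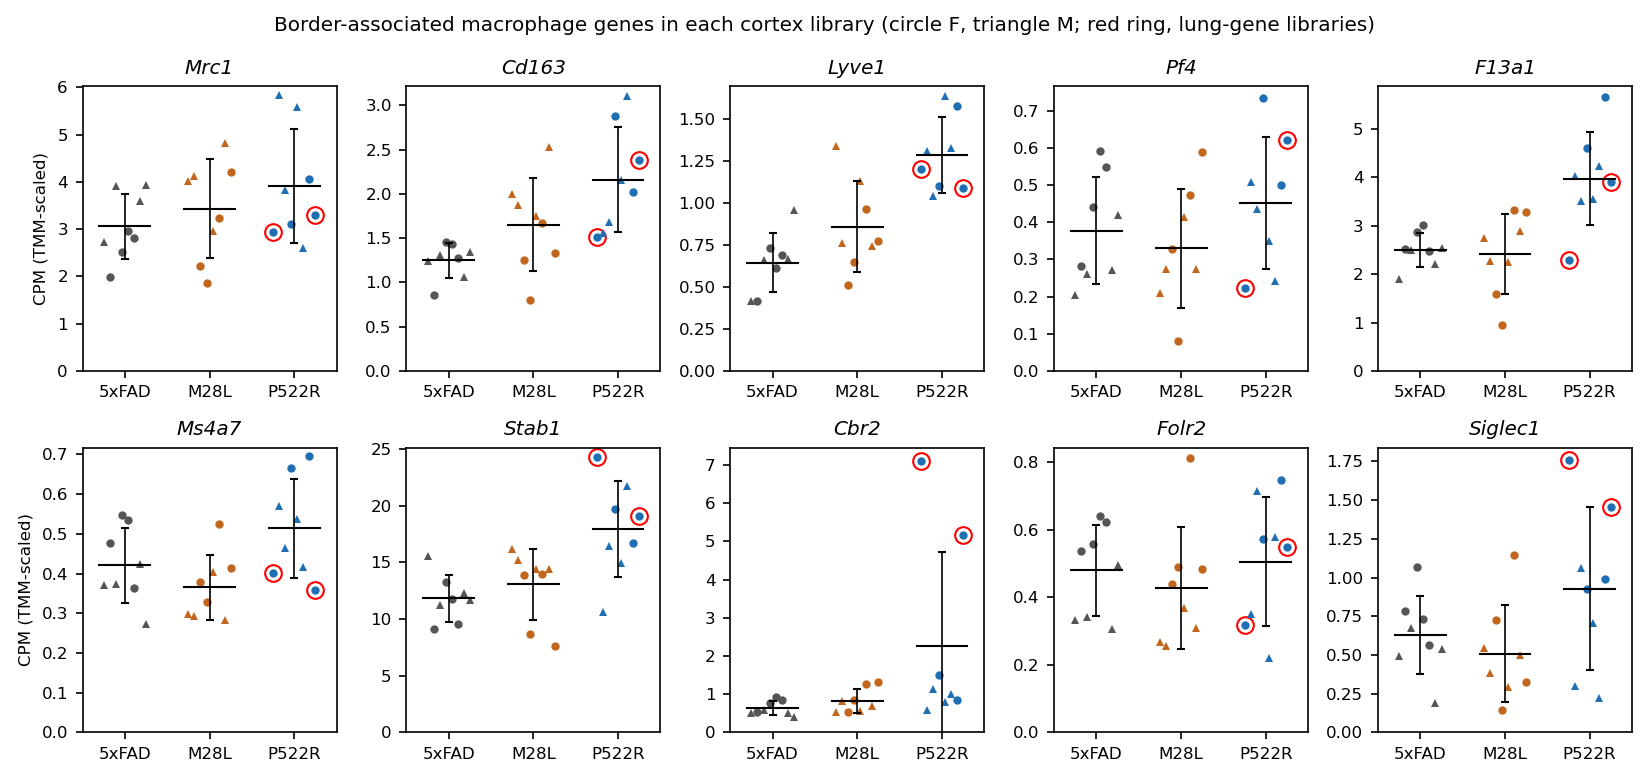
TMM-scaled CPM of each of the 10 genes (1 panel each, y axis from 0) in the 24 cortex libraries by genotype; circles are F and triangles M libraries, the line is the mean and the bar 1 SD of 8 libraries, and red rings mark P522R replicates 8 and 106. P522R lies above all 5xFAD libraries for Cd163 and Lyve1, and the ringed libraries hold the highest Cbr2 and Siglec1 values.

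Levels of different genes were compared per kilobase of exon. In 5xFAD the mean level of Stab1 was the highest, at 1.15 ± 0.199 CPM per kilobase (SD, n = 8). Next came Pf4 at 0.523 ± 0.200, Cbr2 at 0.481 ± 0.139, Mrc1 at 0.480 ± 0.109 and F13a1 at 0.372 ± 0.0515 CPM per kilobase. The range of these 4 means was smaller than the SD of Pf4. Folr2 followed at 0.310 ± 0.0869, then Cd163 at 0.229 ± 0.0368 and Lyve1 at 0.221 ± 0.0597 CPM per kilobase, and the last pair differed by less than their SDs. Ms4a7 at 0.0944 ± 0.0211 and Siglec1 at 0.0881 ± 0.0355 CPM per kilobase were the lowest. In counts, single libraries held from 9 reads (Pf4, in an M28L library) to 2060 reads (Stab1, in a P522R library). Counting error weighs most on Pf4 (9 to 65 reads per library), Ms4a7 (30 to 71) and Folr2 (22 to 93).

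P522R was first set against 5xFAD, which asks for the effect of that variant in plaque-bearing cortex. Of the 10 members 5 were higher in P522R (Cd163, Lyve1, Stab1, F13a1 and Cbr2) and 0 were lower, at an edgeR adjusted p below 0.05. Of all genes tested 15.0% were called higher and 14.8% lower. The median log2 difference of the members was 0.56, against -0.04 over all genes tested. The summed level of the 10 genes lay between 17.5 and 24.2 CPM in 5xFAD and between 25.7 and 42.1 CPM in P522R, without overlap. Stab1 alone made up a mean of 11.8 of 21.8 CPM of this sum in 5xFAD and 17.96 of 33.96 CPM in P522R. The share of all genes tested whose 5xFAD and P522R libraries do not overlap is not given here. In bulk tissue a change in the number of border macrophages and a change in RNA per cell cannot be told apart.

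The receptors come first. Cd163, the scavenger receptor for haemoglobin bound to haptoglobin (ENSMUSG00000008845.10, chromosome 6, 124281615 to 124307486 on the plus strand in the deposited coordinates, whose build is not named), had a lowest, median and highest level of 0.855, 1.29 and 1.46 CPM in 5xFAD. In M28L these were 0.800, 1.71 and 2.53 CPM, and in P522R 1.51, 2.09 and 3.10 CPM. The highest M28L value was that of replicate 17, the library with choroid plexus genes. All 8 P522R libraries lay above the highest 5xFAD library, though by little at the lower end, while M28L spanned most of both ranges. The mean was 1.25 ± 0.201 CPM in 5xFAD and 2.16 ± 0.596 CPM in P522R (SD, n = 8 each), a log2 difference of 0.79 (SE 0.18, edgeR adjusted p = 0.0017).

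Lyve1, a hyaluronan receptor that marks a perivascular and meningeal subset of these macrophages (ENSMUSG00000030787.5, chromosome 7, 110449814 to 110462446, minus strand, deposited coordinates), had the smallest adjusted p of the 10. Its lowest, median and highest levels were 0.415, 0.665 and 0.956 CPM in 5xFAD. They were 0.512, 0.766 and 1.34 CPM in M28L. In P522R they were 1.04, 1.26 and 1.63 CPM. The P522R and 5xFAD libraries did not overlap, and M28L reached into both. The mean went from 0.644 ± 0.174 to 1.28 ± 0.224 CPM, a log2 difference of 0.99 (SE 0.18, edgeR adjusted p = 0.00019) or 1.99-fold. Lyve1 kept its call in all 16 fits that left out 1 library of either genotype, with log2 differences between 0.91 and 1.08. Lymphatic endothelium also makes Lyve1. Its markers Ccl21a and Mmrn1 were too low to be tested, with medians of at most 0.0792 and 0.0233 CPM in any genotype. Of the 4 lymphatic endothelial genes tested, 1 was higher and 1 lower in P522R. Pdpn was higher, at a mean of 29.4 CPM against 19.6 CPM in 5xFAD. Prox1, which some neurons also express, was lower by 0.44 on the log2 scale (edgeR adjusted p = 4.8e-05). Whether lymphatic cells add to the Lyve1 difference was not tested.

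Stab1, a large scavenger receptor (ENSMUSG00000042286.14, chromosome 14, 30860970 to 30890598, minus strand, deposited coordinates), was the most abundant member. Its levels in 5xFAD were 9.12, 11.7 and 15.6 CPM (lowest, median, highest). In M28L they were 7.65, 14.2 and 16.2 CPM, and in P522R 10.7, 17.9 and 24.3 CPM. Of the 8 P522R libraries 6 lay above every 5xFAD library, and P522R replicate 21 lay below the 5xFAD mean. The mean rose from 11.8 ± 2.05 to 17.96 ± 4.22 CPM, a log2 difference of 0.61 (SE 0.15, edgeR adjusted p = 0.0030). Stab1 shares exon bases with Nt5dc2 on the opposite strand, which had 8828 reads over all libraries against 34896 for Stab1. The sources used here do not give the strand setting of the authors' counting, so reads from the shared bases cannot be told apart.

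Mrc1, the mannose receptor (ENSMUSG00000026712.4, chromosome 2, 14234203 to 14336868, plus strand, deposited coordinates), did not pass the test. It lay at 1.99, 2.89 and 3.93 CPM in 5xFAD (lowest, median, highest). The values were 1.86, 3.62 and 4.83 CPM in M28L and 2.61, 3.57 and 5.83 CPM in P522R. Replicate 17 held the highest M28L value here too. The 3 groups overlapped over most of their ranges. The log2 difference of P522R from 5xFAD was 0.36 (95% interval 0.03 to 0.69, edgeR adjusted p = 0.095).

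Folr2, the folate receptor of macrophages (ENSMUSG00000032725.11, chromosome 7, 101489195 to 101506401, minus strand, deposited coordinates), had levels of 0.307, 0.516 and 0.639 CPM in 5xFAD (lowest, median, highest). They were 0.257, 0.404 and 0.813 CPM in M28L and 0.219, 0.561 and 0.745 CPM in P522R. P522R held both the lowest value and several of the high ones, and no group was set apart. The difference was 0.12 on the log2 scale (95% interval -0.35 to 0.58, edgeR adjusted p = 0.75). Folr2 shares exon bases with the predicted gene Gm10602 on the other strand, which had more reads in total (2909) than Folr2 itself (1167), so its level is uncertain. Siglec1, the sialic acid lectin also called sialoadhesin (ENSMUSG00000027322.12, chromosome 2, 130911140 to 130928685, minus strand, deposited coordinates), was the member with the widest relative spread in 5xFAD. Its lowest, median and highest levels were 0.189, 0.618 and 1.07 CPM in 5xFAD, 0.142, 0.444 and 1.15 CPM in M28L, and 0.219, 0.959 and 1.76 CPM in P522R. The highest 2 values of P522R were those of replicates 8 and 106. The difference from 5xFAD was 0.51 (95% interval -0.17 to 1.19, edgeR adjusted p = 0.26), and 0.28 (adjusted p = 0.64) without those 2 libraries.

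The secreted and enzymatic members follow. F13a1, the A subunit of coagulation factor XIII, which cross-links fibrin (ENSMUSG00000039109.18, chromosome 13, 37051152 to 37234220, minus strand, deposited coordinates), lay at 1.90, 2.51 and 3.02 CPM in 5xFAD (lowest, median, highest). It lay at 0.960, 2.52 and 3.33 CPM in M28L and at 2.29, 3.97 and 5.66 CPM in P522R. Of the P522R libraries 7 exceeded every library of both other genotypes, and the one that did not was replicate 8. The mean rose from 2.51 ± 0.347 to 3.98 ± 0.966 CPM, a log2 difference of 0.67 (SE 0.19, edgeR adjusted p = 0.0079). F13a1 shares exon bases with the predicted gene Gm30489, which had 38 reads in all against 7273.

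Pf4, the chemokine platelet factor 4 (ENSMUSG00000029373.8, chromosome 5, 90920294 to 90921242, plus strand, deposited coordinates), had levels of 0.204, 0.350 and 0.592 CPM in 5xFAD (lowest, median, highest). In M28L they were 0.0800, 0.301 and 0.588 CPM and in P522R 0.224, 0.468 and 0.733 CPM. The groups overlapped throughout, and the difference of P522R from 5xFAD was 0.28 (95% interval -0.33 to 0.88, edgeR adjusted p = 0.52). Of 8 platelet genes, 4 (Ppbp, Gp1ba, Gp6 and Tubb1) were too low to be tested, and of the other 4 none passed in either direction. The summed platelet level lay between 2.30 and 3.60 CPM in 5xFAD and between 1.01 and 4.69 CPM in P522R.

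Cbr2, a carbonyl reductase (ENSMUSG00000025150.11, chromosome 11, 120620315 to 120622940, minus strand, deposited coordinates), showed the largest difference and the strongest dependence on single libraries. Its levels were 0.410, 0.565 and 0.921 CPM in 5xFAD (lowest, median, highest) and 0.536, 0.761 and 1.33 CPM in M28L. In P522R they were 0.579, 1.07 and 7.09 CPM. The highest 2 P522R values, 7.09 and 5.18 CPM, belonged to the 2 libraries with lung genes, and the other 6 lay between 0.579 and 1.51 CPM. Over all libraries the log2 difference was 1.60 (SE 0.34, edgeR adjusted p = 0.00079). Without those 2 libraries it was 0.74 (edgeR adjusted p = 0.012), with means of 0.979 ± 0.321 CPM (SD, n = 6) and 0.638 ± 0.185 CPM (SD, n = 8).

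Ms4a7, a membrane protein of the Ms4a family (ENSMUSG00000024672.12, chromosome 19, 11298403 to 11313510, minus strand, deposited coordinates), had levels of 0.273, 0.399 and 0.547 CPM in 5xFAD (lowest, median, highest). They were 0.282, 0.354 and 0.525 CPM in M28L and 0.359, 0.502 and 0.696 CPM in P522R. P522R lay in the upper part of a shared range. The difference was 0.30 (95% interval -0.08 to 0.69, edgeR adjusted p = 0.24).

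Without P522R replicates 8 and 106 the same 5 members were called higher than in 5xFAD, where 12.2% of 21724 genes tested were called higher. Besides Cbr2, the differences were 1.03 for Lyve1 (edgeR adjusted p = 0.000647), 0.83 for Cd163 (0.0036), 0.81 for F13a1 (0.0030) and 0.50 for Stab1 (0.024). Lyve1, Cd163 and F13a1 were thus no smaller without the lung-gene libraries, whereas the value of Cbr2 lay below the lower end (0.90) of its 95% interval from all libraries.

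**Figure D2:**
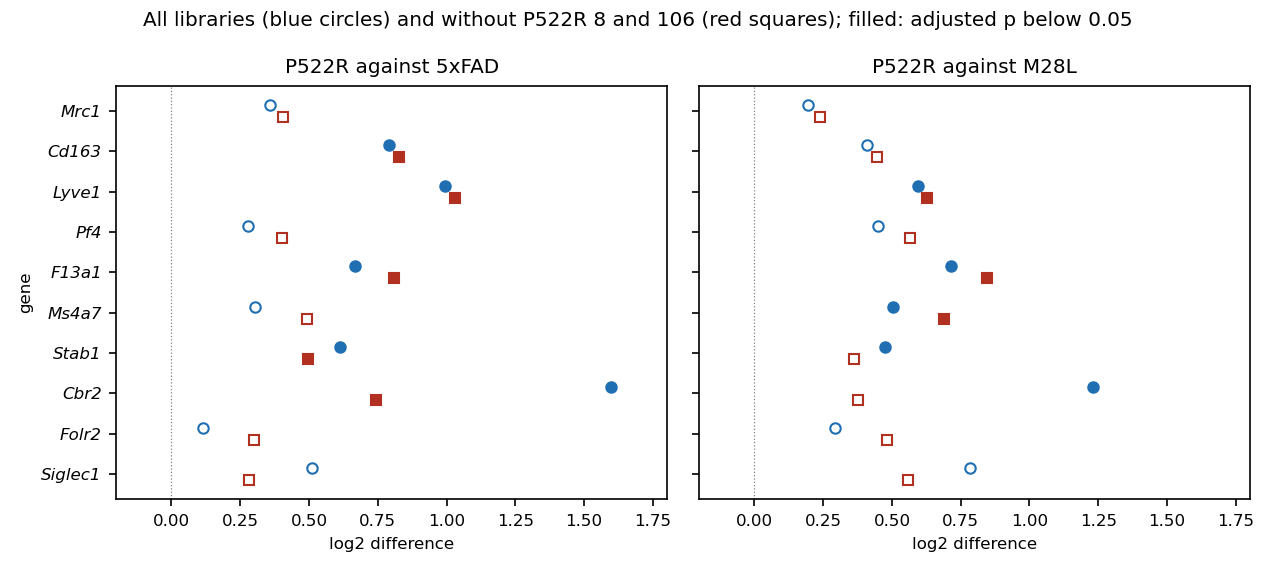
Log2 difference (x axis) of each of the 10 genes (y axis) for P522R against 5xFAD and against M28L, from all 24 libraries (blue circles) and without P522R replicates 8 and 106 (red squares); filled symbols have an edgeR adjusted p below 0.05. Against 5xFAD the same 5 genes are filled in both fits, and Cbr2 moves from 1.60 to 0.74.

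The promoters of the called genes are shown because these genes were higher in the same comparison. RefSeq windows on GRCm38.p6, from 250 bases before to 50 bases after a start site, were at hand for 8 of the 10 members (11 windows) and for 4 of the 5 called in P522R. They are printed on the gene's strand. Their positions do not match the deposited gene coordinates given above, whose build is not named, so the 2 sets of positions cannot be compared. Capitals mark matches on either strand to GAGGAA, the core of the PU.1 motif, or to TGCTGAC, part of the recognition site of MAF factors, both regulators of macrophage genes.
Cd163, chr6:124304401-124304700 (plus strand): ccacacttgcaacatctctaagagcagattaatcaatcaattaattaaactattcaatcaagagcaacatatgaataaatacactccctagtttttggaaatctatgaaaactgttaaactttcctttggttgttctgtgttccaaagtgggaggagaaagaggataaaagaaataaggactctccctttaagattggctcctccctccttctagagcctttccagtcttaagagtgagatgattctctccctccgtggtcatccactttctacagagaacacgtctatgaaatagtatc
F13a1, chr13:37050195-37050494 (minus strand): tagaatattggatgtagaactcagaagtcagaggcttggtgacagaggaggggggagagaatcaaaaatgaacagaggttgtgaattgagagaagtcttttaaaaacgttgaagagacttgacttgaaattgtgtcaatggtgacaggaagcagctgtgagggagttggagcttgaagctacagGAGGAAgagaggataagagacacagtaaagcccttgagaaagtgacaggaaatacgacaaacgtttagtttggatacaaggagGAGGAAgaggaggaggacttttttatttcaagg
Stab1, chr14:31168592-31168891 (minus strand): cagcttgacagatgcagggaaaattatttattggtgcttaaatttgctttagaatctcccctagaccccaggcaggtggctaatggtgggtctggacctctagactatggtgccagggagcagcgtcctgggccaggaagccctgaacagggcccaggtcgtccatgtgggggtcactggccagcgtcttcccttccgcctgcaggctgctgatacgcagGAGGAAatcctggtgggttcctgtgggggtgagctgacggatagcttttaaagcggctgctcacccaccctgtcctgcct
Cbr2, chr11:120731972-120732271 (minus strand): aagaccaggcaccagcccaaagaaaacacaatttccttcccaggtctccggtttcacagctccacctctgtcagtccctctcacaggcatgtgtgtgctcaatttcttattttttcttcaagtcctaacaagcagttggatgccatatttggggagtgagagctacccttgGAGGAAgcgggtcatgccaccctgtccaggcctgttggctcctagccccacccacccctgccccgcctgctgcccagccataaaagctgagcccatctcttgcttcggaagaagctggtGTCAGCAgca
The PU.1 letters occurred in 6 of the 8 member genes, against 31.3% of the 27025 genes with a window, and in 7 of 11 member windows against 28.3% of all 32851. Mrc1 held 3 matches, all on the opposite strand, and the F13a1 window above held 2. Stab1, Pf4 and Ms4a7 each held 1 in a window. Cbr2 held 1 and was the only member with the MAF letters, which stood in 5.28% of genes. No match was found in the windows of Cd163, which was called, and of Folr2, which was not. A match is a run of letters and not a measured binding site.

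Other genes of border macrophages, a list of 20 that excludes the members, followed in the same comparison. The list was chosen with earlier results of these data known. Of the 19 tested, 9 were higher in P522R than in 5xFAD and 0 were lower, with a median log2 difference of 0.48. Of all genes tested 15.0% were higher. The summed level of the list lay between 77.0 and 97.6 CPM in 5xFAD and between 107 and 139 CPM in P522R, without overlap. How often other sums of genes show no overlap is not given here. Maf alone made up a mean of 38.3 of 88.1 CPM of this sum in 5xFAD and 58.0 of 119.7 CPM in P522R. Cd209f, a lectin found on meningeal macrophages, was higher by 1.14 (SE 0.24, edgeR adjusted p = 0.00072). The transcription factor Maf was higher by 0.60 (SE 0.08, adjusted p = 6.3e-06), the endocytic adaptor Dab2 by 0.48 (adjusted p = 0.00056) and Ms4a6b by 0.63 (adjusted p = 0.00055). Without the 2 lung-gene libraries 7 of the 19 were higher and 0 lower, where 12.2% of all genes tested were higher. Maf, Dab2 and some others of this list are also expressed by cells other than macrophages.

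A list of 7 genes linked to another subset of border macrophages holds the class II antigen presentation genes H2-Aa, H2-Ab1, H2-Eb1, Cd74 and Ciita together with Cd52 and Ccr2, which are no class II genes. In it 0 were higher and 1 was lower (H2-Aa, by 0.82 on the log2 scale, edgeR adjusted p = 0.035), and the median was -0.49. Without the 2 lung-gene libraries 0 passed in either direction (median -0.40). Of 12 growth and identity factors of macrophages 6 were higher and 0 lower (median 0.34), led by Maf and by Tgfb1 at 0.88 (adjusted p = 7.1e-06), and 4 were higher without those libraries (median 0.34). The lists are not separate: Maf is also counted among the other border macrophage genes, and some other factors stand in the myeloid and microglia lists below. Among 14 genes shared by all myeloid cells 4 were higher and 1 was lower (median 0.15), against 1 and 0 without those libraries (median 0.28). Of 12 homeostatic microglia genes 1 was higher and 2 were lower (median -0.02), and of 14 disease-associated ones 1 was higher and 1 lower (median 0.28). Without those libraries these counts were 1 and 1 (median 0.08) and 4 and 1 (median 0.40).

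Several markers of the tissue in which border macrophages lie were also higher in P522R than in 5xFAD. Of 18 meninges and fibroblast genes 14 were higher in P522R than in 5xFAD and 0 lower, with a median of 0.65. Their summed level lay between 117 and 171 CPM in 5xFAD, between 182 and 253 CPM in M28L and between 220 and 286 CPM in P522R. Both variants thus lay wholly above 5xFAD. The summed level of the members in M28L (14.8 to 28.1 CPM) overlapped that of 5xFAD (17.5 to 24.2 CPM). Against 5xFAD the meninges level and the genotype can therefore not be told apart by a covariate. With it in the model 0 of the 10 members and 21 of 21280 genes were called. The log2 differences of Lyve1 (1.01) and F13a1 (0.76) were then no smaller than without it, that of Cd163 was 0.51, and those of Stab1 (0.06) and Cbr2 (-0.095) were near 0. Of 12 mural genes, those of pericytes and smooth muscle, 6 were higher and 0 lower (median 0.46). Of 11 choroid plexus genes tested 2 were higher and 0 lower (median 0.95), and of 12 endothelial genes 2 were higher and 1 was lower (median 0.01). Without the 2 lung-gene libraries meninges genes were higher in 14 of 18 again (median 0.64), while mural genes were higher in 4 and lower in 1 (median 0.37). Choroid plexus genes were then higher in 1 (median 0.49), and endothelial genes higher in 2 and lower in 4 (median -0.14). Of 4 lymphatic endothelial genes tested Pdpn was higher and Prox1 lower. Of 6 blood leukocyte genes tested 1 was higher (Cd79a), and of 5 red cell genes 0 passed in either direction. Of 10 cortical neuron genes 1 was lower and 0 higher (median -0.03).

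**Figure D3:**
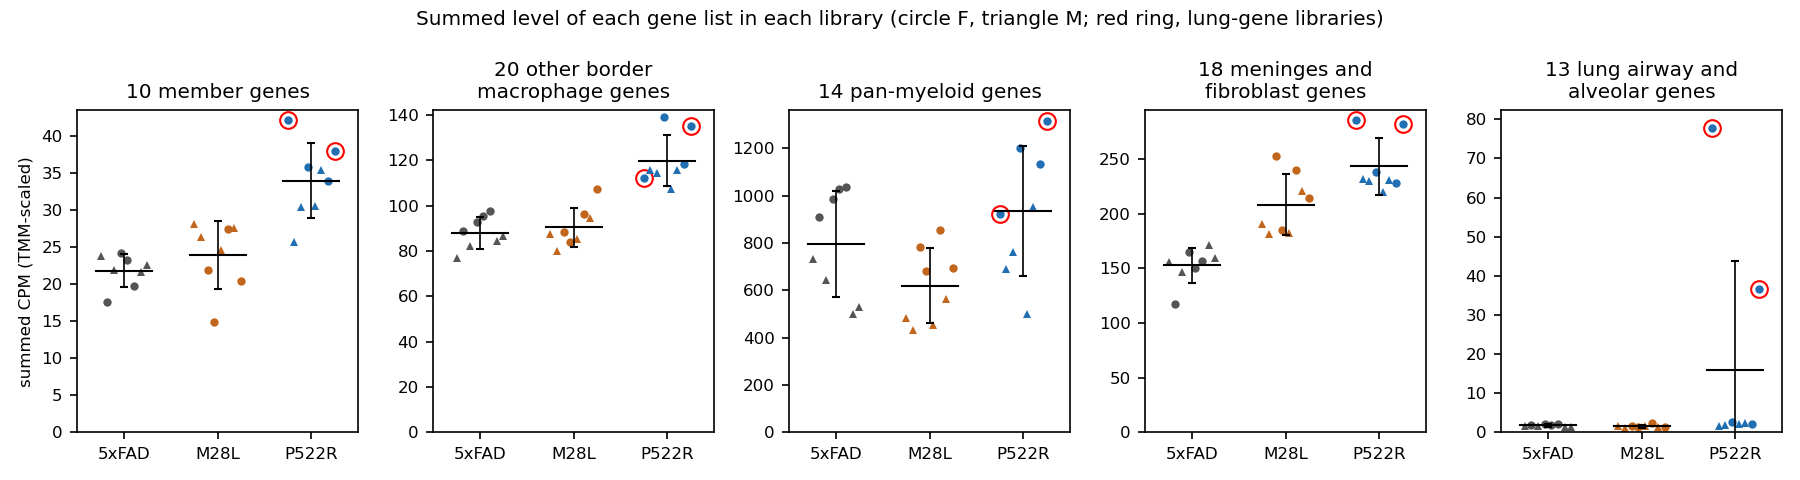
Summed TMM-scaled CPM (y axes from 0) of the 10 members, 20 other border macrophage genes, 14 pan-myeloid genes, 18 meninges and fibroblast genes and 13 lung genes in each of the 24 libraries by genotype; circles are F, triangles M, lines means and bars 1 SD, and red rings mark P522R replicates 8 and 106. Members and meninges genes are above the 5xFAD range in all 8 P522R libraries, and the lung genes stand out in the ringed libraries alone.

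The calls in P522R against 5xFAD changed with the covariates. The Bc1 share itself tended to be higher in P522R, so the share and the genotype cannot be fully told apart by a covariate. With the Bc1 share as a covariate 1 of the 10 remained called (Lyve1, log2 difference 1.30, edgeR adjusted p = 0.0037), where 4.18% of all genes were called in either direction. The differences of the members that missed the threshold there were 0.66 for F13a1, 1.27 for Cbr2, 0.53 for Cd163 and 0.44 for Stab1, against 0.67, 1.60, 0.79 and 0.61 without the covariate. Without the 5 libraries over 10% Bc1 the calls were Lyve1 at 1.01 (0.0073) and F13a1 at 0.76 (0.035), where 11.5% of all genes were called. Cbr2, Cd163 and Stab1 lost their calls there. Their differences were 0.51, 0.46 and 0.24, against 1.60, 0.79 and 0.61 over all libraries. Left out there were 5xFAD replicate 1180 and P522R replicates 8, 24, 31 and 106, all with the letter F but replicate 31. Both lung-gene libraries are thus among them. The Bc1 share, the lung genes and the smaller, unevenly lettered P522R group cannot be told apart in this fit. With the letter-and-number prefix of the title as a replicate block 4.40% of all genes were called, and Stab1 (0.51, adjusted p = 0.13) and Cbr2 (1.09, adjusted p = 0.12) lost their calls. None of the 5 calls was lost when 1 library of either genotype was left out. Within the F libraries alone 4 members and 13.6% of all genes were called, without F13a1 (0.67, adjusted p = 0.17). Within the M libraries alone 4 members and 21.9% of all genes were called, without Stab1 (0.33, adjusted p = 0.17, against 0.95 in F). Lyve1 differed by 1.09 in F and by 0.97 in M, and Cd163 by 0.88 and 0.78. Cbr2 differed by 2.34 in F, where 2 of the 4 P522R libraries are those with lung genes and the other 2 had 1.51 and 0.843 CPM, and by 0.80 in M. The genotype by letter term was called for 0 members, and for 0% of all genes tested in P522R against 5xFAD. Cbr2 had the largest term there, -1.45 (SE 0.60, edgeR adjusted p = 0.30), with the lung-gene libraries included.

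M28L was set against 5xFAD in the same way. No member was called (0 of 10 by edgeR and by DESeq2), while 0.503% of all genes tested were called higher and 0.710% lower. At an unadjusted p below 0.05 there were 2, Lyve1 at 0.40 (95% interval 0.02 to 0.78, edgeR adjusted p = 0.40) and Cd163 at 0.38 (95% interval 0.0041 to 0.75, adjusted p = 0.43). In both genes 7 of 8 M28L libraries exceeded the 5xFAD mean. The limma-voom fit with sample weights, which called 9.10% of all genes in either direction, called 2 members higher, Cd163 at 0.53 (adjusted p = 0.031) and Stab1 at 0.30 (adjusted p = 0.048). The median over the members was 0.05, and 5 of the 10 differences were above 0. The intervals of the others left room for sizeable differences: for Mrc1 from -0.17 to 0.49, for F13a1 from -0.43 to 0.34, for Stab1 from -0.17 to 0.45 and for Ms4a7 from -0.59 to 0.19. For the scarcest or most variable members they were wider still, from -0.78 to 0.44 for Pf4, from -0.32 to 1.06 for Cbr2, from -0.65 to 0.29 for Folr2 and from -0.97 to 0.42 for Siglec1. The term for genotype by letter was called for 0 members, and for 0.0282% of all genes tested. Cd163 had the largest term there, 0.72 (SE 0.34, edgeR adjusted p = 0.99), with means of 1.26 CPM in F and 2.04 CPM in M libraries of M28L. The M libraries include replicate 17, the one with choroid plexus genes.

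The other macrophage lists were read in the same comparison of M28L with 5xFAD. Of the 19 other border macrophage genes tested 0 were higher and 1 was lower: Wfdc17, a small secreted protein of myeloid cells, which fell by 1.66 on the log2 scale (SE 0.26, edgeR adjusted p = 0.00061). Their median was 0.05. In the list of class II genes with Cd52 and Ccr2, 5 of 7 were lower (H2-Aa, Cd74, H2-Ab1, H2-Eb1 and Cd52, median -1.22). Disease-associated microglia genes were lower in 8 of 14 (median -0.72) and genes shared by all myeloid cells in 4 of 14 (median -0.40), with 0 higher in each list. Of 18 meninges and fibroblast genes 4 were higher and 0 lower (median 0.31).

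**Figure D4:**
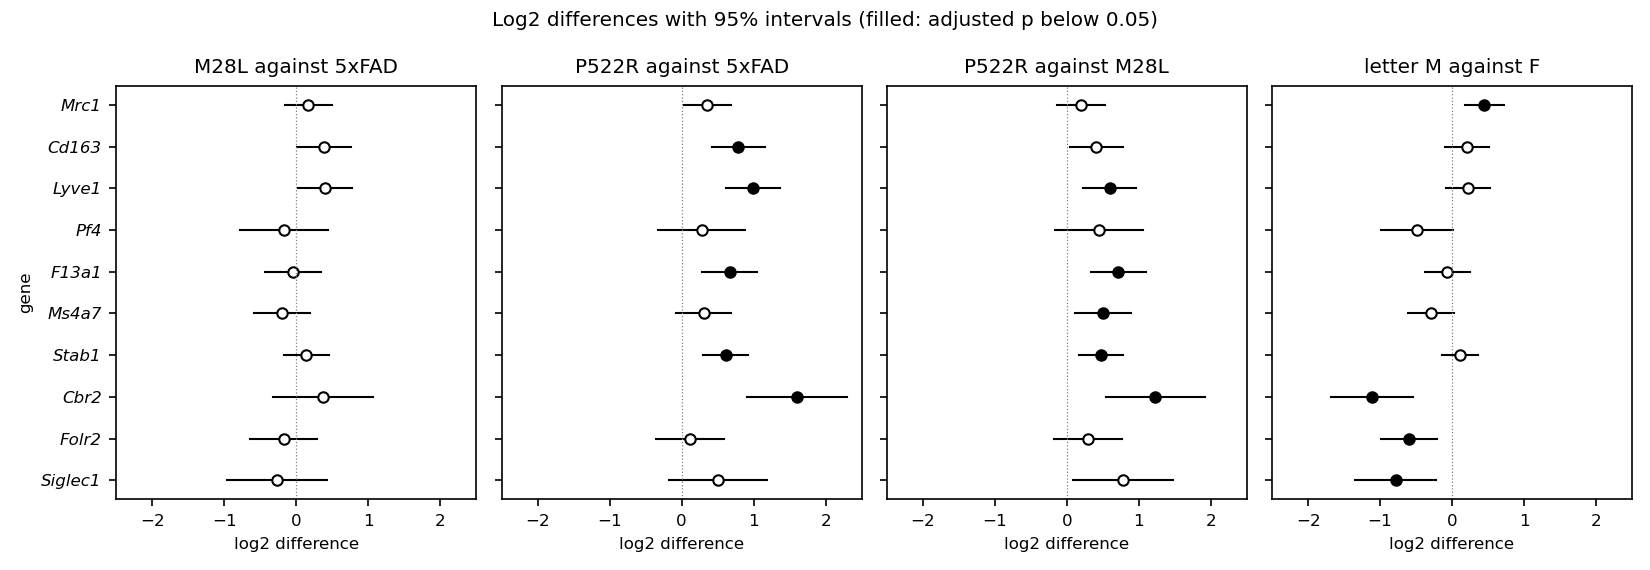
Log2 difference with its 95% interval (x axis) for each of the 10 genes (y axis) in the 3 genotype comparisons and between title letters M and F, from the edgeR fit of all 24 libraries; filled points have an adjusted p below 0.05. Filled points number 0 for M28L against 5xFAD, 5 in both P522R panels and 4 in the letter panel.

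The third comparison sets the variants against each other. It shares the P522R libraries with the first and the M28L libraries with the second, so it is not independent of them. Of the 10 members 5 were higher in P522R than in M28L and 0 were lower, where 16.5% of all genes tested were called higher and 18.3% lower. The median of the members was 0.49, against -0.03 over all genes. F13a1 was higher by 0.71 (SE 0.19, edgeR adjusted p = 0.0040), with 7 of 8 P522R libraries above the highest M28L library. Lyve1 was higher by 0.59 (SE 0.18, adjusted p = 0.012), with all 8 above the M28L mean. Stab1 was higher by 0.47 (SE 0.15, adjusted p = 0.016) and Cbr2 by 1.23 (SE 0.33, adjusted p = 0.0052). Ms4a7 was higher by 0.50 (SE 0.19, adjusted p = 0.040), with means of 0.514 ± 0.124 CPM in P522R and 0.366 ± 0.0824 CPM in M28L (SD, n = 8 each). Cd163, which was called against 5xFAD, differed by 0.41 here and missed the threshold (adjusted p = 0.080), and it passed with DESeq2 (0.44, adjusted p = 0.0485) and with GC and length offsets (0.58, adjusted p = 0.021). It also passed in 4 of the 16 fits that left out 1 library. Among them was the fit without M28L replicate 17, the library with choroid plexus genes (0.50, edgeR adjusted p = 0.033).

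Among the members not called against M28L, Siglec1 differed by 0.78 (95% interval 0.09 to 1.47, edgeR adjusted p = 0.073) and Pf4 by 0.45 (95% interval -0.16 to 1.06, adjusted p = 0.26). Folr2 differed by 0.29 (95% interval -0.18 to 0.77, adjusted p = 0.34) and Mrc1 by 0.19 (95% interval -0.14 to 0.52, adjusted p = 0.37). Without the 2 lung-gene libraries 3 members were called, where 13.9% of genes tested were higher: F13a1 at 0.85, Ms4a7 at 0.69 and Lyve1 at 0.63. Cbr2 then differed by 0.38 (adjusted p = 0.20) and Stab1 by 0.36 (adjusted p = 0.091). Ms4a7 lost its call in 11 of the 16 fits that left out 1 library, among them the one without P522R replicate 54 (adjusted p = 0.074). Within the M libraries alone F13a1 was the only member called (0.61, adjusted p = 0.0047), where 24.3% of all genes were called. Once the Bc1 share was a covariate 0 of the 10 members, and 20 of 21280 genes, were called between the variants. The differences were then 1.06 for Lyve1, 0.70 for F13a1, 0.54 for Ms4a7, 0.73 for Cbr2 and 0.20 for Stab1, against 0.59, 0.71, 0.50, 1.23 and 0.47 without the covariate. The meninges level overlapped between the variants, and with it as a covariate 24.2% of all genes were called. Lyve1 (0.60, edgeR adjusted p = 0.049) and F13a1 (0.74, 0.014) kept their calls. Ms4a7 (0.58, 0.052), Cbr2 (0.52, 0.37) and Stab1 (0.28, 0.24) lost theirs.

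The lists around the members were also compared between the variants. Of the 19 other border macrophage genes 6 were higher in P522R than in M28L and 0 lower (median 0.39), with Wfdc17 at 2.64 (SE 0.26, edgeR adjusted p = 1.4e-07). Genes of disease-associated microglia rose in 13 of 14 (median 1.04), and genes shared by all myeloid cells in 10 of 14 (median 0.55). In the list of class II genes with Cd52 and Ccr2, 5 of 7 were higher (H2-Aa, Cd74, H2-Ab1, H2-Eb1 and Cd52, median 0.82). Of the meninges and fibroblast genes 5 of 18 were higher and 1 was lower (median 0.21). Without the 2 lung-gene libraries these counts of higher genes were 6, 13, 11, 4 and 5 in the same order, and 2 meninges and fibroblast genes were lower.

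The title letters were also compared across libraries of all genotypes, a comparison added after the data were seen. Mrc1 was higher in M than in F libraries by 0.45 (SE 0.13, edgeR adjusted p = 0.0094), at 3.998 against 2.94 CPM on average. Lower in M were Cbr2 by 1.11 (adjusted p = 0.0026), Folr2 by 0.60 (adjusted p = 0.014) and Siglec1 by 0.78 (adjusted p = 0.028). Thus 1 of 10 members was higher and 3 were lower, where 17.4% of all genes tested were higher in M and 16.4% lower. The 4 calls among 10 members are near the share of all genes called in either direction (33.8%). Folr2 lay at 0.589 ± 0.0498 CPM in F and 0.369 ± 0.0854 CPM in M libraries of 5xFAD (SD, n = 4 each), and at 0.556 ± 0.173 against 0.300 ± 0.0504 CPM in M28L. The lung-gene libraries are both F, and without them Siglec1 lost its call (-0.64, adjusted p = 0.093) and the difference of Cbr2 was -0.57 (adjusted p = 0.010). Siglec1 lost it also without 5xFAD replicate 1189 (adjusted p = 0.051) or M28L replicate 16 (adjusted p = 0.079). All 4 calls were lost once the Bc1 share was a covariate, where 6.68% of all genes were called in either direction against 33.8% without it. In 5xFAD and in M28L every F library had a larger Bc1 share than every M library, while in P522R the letters overlapped. The share and the letter can thus not be fully told apart by a covariate. With that covariate the differences were 0.24 for Mrc1, -0.88 for Cbr2, -0.67 for Folr2 and -0.98 for Siglec1. Genes shared by all myeloid cells were lower in M in 14 of 14 (median -0.73), and of the 19 other border macrophage genes 9 were lower and 0 higher. Mrc1 was called in the direction opposite to these lists, but with GC and length offsets its difference was 0.17 and that of Folr2 -0.33, and both calls were lost (adjusted p = 0.29 and 0.18).

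The members varied together only in part. After genotype and letter means were taken out, log2 levels of the 45 pairs of members correlated over 24 libraries with a median Pearson r of 0.20. Pf4 and F13a1 had the highest r (0.75) and Ms4a7 and Cbr2 the lowest (-0.56). Set against the mean of the other 9, F13a1 correlated best (0.77), then Pf4 (0.65) and Cd163 (0.65), while Cbr2 did not follow the others (-0.04). With the mean of all 10, among 13311 other genes at a mean of at least 1 CPM, Dab2 was most alike (r = 0.75), followed by Slc13a4 and Aldh1a2 (both 0.73), Rnasek (0.70), Gstm2, Spice1 and Cep89 (all 0.68), Igf2 (0.66), Fam180a (0.65) and Mamdc2 (0.64). Of these 10 Dab2 stands in the list of other border macrophage genes, and Aldh1a2 and Igf2 stand in the list of meninges and fibroblast genes. These correlations share libraries, depth and scaling and are given as a description.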

How the data were processed

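Mouse cortex mRNA was sequenced in 24 libraries. The deposited table holds read counts per gene, whole numbers that the authors did not normalize, beside gene coordinates and an exon length per gene (another unit, bases, used here for levels per kilobase). Per the submitters' processing notes the authors used STAR 2.7.2b and featureCounts; build, annotation and strand setting are not given in the sources used here. Of 53647 identifiers 52093 (97.1%) had a symbol in GENCODE M21. The members and the gene lists were chosen with earlier results of these data known.

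Counts were tested with edgeR 4.0.16 in R 4.3.3 (quasi-likelihood test after TMM scaling and filterByExpr by genotype). One model of all 24 libraries held the genotype and the title letter, with Benjamini-Hochberg adjustment over 21280 genes. A gene was called at an adjusted p below 0.05. SEs were derived from the F statistic. The steps were tested on simulated counts. P-values measure the spread between mice only as far as each library is a separate animal. The number in each title was taken as an animal number, which the titles themselves do not state.

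Alternatives were DESeq2 1.42.0, limma 3.58.1 (voom, weighted by sample), upper-quartile or RLE scaling, no low-count filter, a filter at a mean of 1 CPM, no letter term, the compared genotypes alone, each letter alone, the title prefix as a block, covariates for Bc1 share and meninges level, GC and length offsets, no libraries over 10% Bc1, and each library left out. A fit without the 2 libraries over 1 CPM of Scgb1a1, the lung list and the letter comparison were added after the data were seen. Besides the members the text may name Plcg2, Bc1, up to 4 genes per list by smallest p, and the 10 genes most correlated with the members over 24 libraries after removing genotype and letter means (log2 CPM, prior count 2). Lymphatic and platelet genes too low to test, Scgb1a1 and genes sharing exon bases with members are named for their level or overlap. RefSeq promoter windows were searched on both strands.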

Additional observations from a re-analysis of the deposited data

Results flagged for a closer look

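Among 30 sets of 8 libraries (10 genes in 3 genotypes), 1 value stood apart from the rest of its set: Folr2 in M28L replicate 16, at 0.813 CPM. The next highest M28L library had 0.489 CPM, and the gap was 0.583 of the whole range, above the critical ratio of 0.526 for 8 libraries. Chance alone sets apart about 1 in 20 such sets.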

How the results depend on the processing

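Members called are counts out of 10, or of those tested. Percentages in brackets are the shares of all genes tested that were called in either direction. In P522R against 5xFAD, where 5 were called (29.8%), the count was 3 with the title prefix as replicate block (4.4%). It was 1 with the Bc1 share as covariate (4.18%), 2 without libraries over 10% Bc1 (11.5%) and 0 with the meninges level as covariate (0.0987%). In P522R against M28L, where 5 were called (34.8%), it was 3 with voom (34.7%) and 3 at a mean of 1 CPM (48.8%), where fewer members were tested. It was 1 in M libraries alone (24.3%), 1 with the block (5.92%) and 0 with the Bc1 covariate (0.094%). Without libraries over 10% Bc1 it was 3 (13.3%), with the meninges covariate 2 (24.2%) and without the lung-gene libraries 3 (27.0%). It was 7 both with DESeq2 (36.9%, Cd163 and Siglec1 added) and with GC and length offsets (33.8%, Mrc1 and Cd163 added). For M28L against 5xFAD it was 0 (1.21%), and 2 with voom (9.1%). Between letters it was 4 (33.8%), and 2 at a mean of 1 CPM (45.5%), 0 with the Bc1 covariate (6.68%) and 2 with GC and length offsets (30.6%). Leaving out single libraries gave 5 to 6, 4 to 6, 0 and 3 to 5 calls in these comparisons. Outside the cases with fewer genes or libraries, the cause was not tested. Mrc1 was called in P522R against 5xFAD with GC and length offsets (0.55, edgeR adjusted p = 0.0030) and without P522R replicate 31 (0.45, adjusted p = 0.029).

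Some differences that passed no test changed sign. In M28L against 5xFAD these were Siglec1 with voom (0.021), F13a1 in M libraries (0.14), with the block (0.11), with the meninges covariate (0.018) and over single libraries left out (-0.13 to 0.084, above 0 without M28L replicate 12 or 14), Pf4 with the block (0.33), and Stab1 (-0.22) and Cbr2 (-0.61) with the meninges covariate. In P522R against 5xFAD they were Folr2 in F libraries (-0.030) and over single libraries left out (-0.046 to 0.25, below 0 without P522R replicate 23), and Siglec1 with the block (-0.16) and the meninges covariate (-0.40). Cbr2, which was called, changed sign with the meninges covariate (-0.095). Between letters Stab1 did so with GC and length offsets (-0.022). Blocking by prefix pairs few libraries, and the labels do not say what the prefix marks. Depth limits Pf4, Ms4a7 and Folr2 most.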
